A study of Mus musculus with 9 samples.

Results

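Binding of MyoD1 was followed at 52 genes that encode the sarcomere, the contractile unit of striated muscle, out of 21938 protein-coding genes annotated in the mouse. A gene was counted with its body plus 10 kb on each side, and each CUT and RUN peak overlapping that window by 1 bp or more was taken as a peak of the gene, with a peak in more than 1 window counted once. The genes came as a list and were not picked by a rule on measured values. The list was, however, chosen with earlier results of these data known. They were divided into 20 thin filament genes, 14 thick filament genes, 11 Z-disc genes, 3 M-band genes and 4 further genes, namely Ttn, Capn3 and the myosin chaperone genes Smyd1 and Unc45b.

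In a sarcomere, thin filaments of actin carry tropomyosin, which covers the myosin binding sites, and the troponin complex, which moves tropomyosin when calcium binds. Thick filaments are bundles of myosin heavy chains with their light chains and myosin binding proteins. Z-discs, built on alpha-actinin, anchor the thin filaments, myomesins tie thick filaments together at the M-band, and titin spans from one to the other. MyoD1 is a basic helix-loop-helix factor of the muscle lineage that binds E-boxes, the letters CANNTG, with CAGCTG as its preferred form. Many sarcomere genes are textbook targets of MyoD1 and its relatives during myoblast differentiation.

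All 6 libraries came from C2C12, a mouse myoblast line, in a line that carries Myod1 tagged with 3xFlag-Halo at its own locus and an additional 3xFlag-Halo-MyoD1 transgene under the doxycycline-inducible TRE3G promoter. The line is 1 clone, so nothing here speaks to other clones. Both groups therefore held tagged endogenous MyoD1, and both were switched to differentiation medium at the start of the treatment. The 3 no dox replicates had no doxycycline and the 3 +dox replicates had it at 1 µg/mL for 6 h, after which anti-Flag M2 antibody and a micrococcal nuclease fusion released the DNA around MyoD1. The series also has 3 wild-type libraries, from cells with no tag. They were not analysed here, and the level that the antibody gives without its target is therefore unknown. In a pool of cells, binding in fewer nuclei and weaker binding per nucleus cannot be told apart.

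Each library had its own peak list, called with SEACR, in which every peak carries its maximum signal as coverage scaled to library size (CPM). In replicate order the no dox lists held 9389, 13877 and 13403 peaks and the +dox lists 12536, 13260 and 53661. The heights were whole multiples of 1 step, the worth of 1 alignment, and gave depths between 2868000 alignments in +dox replicate 1 and 8030000 in +dox replicate 3. Reads were paired-end, so both ends of a fragment may count, and numbers of alignments given here are not numbers of fragments. The library +dox replicate 3 stands apart in both depth and length, and values that rest on it are given with and without it. To compare libraries of unequal depth, heights are given as percentiles, the rank of a peak's maximum signal within its own list, where 50 is the middle and 100 the top. A percentile also depends on the length of the list, since a longer list can hold more low peaks below a given site. Over the 4838 regions called in all 6 libraries the median percentile was 93.5 in +dox replicate 3 and 70.2 to 80.4 in the others. A higher percentile in +dox replicate 3 is therefore not by itself a gain in binding.

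A few of the bound sites are shown first, each as the stretch of GRCm38 around the highest point of the region, on the plus strand, with the E-box CAGCTG in capitals, as is CAGGTG in either orientation. The highest point was that of the library in which the region had its highest percentile. That library was +dox replicate 3 for 17 of the 19 regions at sarcomere genes called in all 6 libraries. The sites shown were chosen after their values were seen, from each structural class among sites whose highest point lay outside exons. The thin filament stretches lie just upstream of Tpm2 (chr4:43523766-43523886), at the 5′ end of Tnni1 (chr1:135778996-135779156) and downstream of Acta1 (chr8:123884896-123885056):
Tpm2: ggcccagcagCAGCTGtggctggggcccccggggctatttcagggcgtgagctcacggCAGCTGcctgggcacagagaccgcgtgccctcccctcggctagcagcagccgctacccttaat
Tnni1: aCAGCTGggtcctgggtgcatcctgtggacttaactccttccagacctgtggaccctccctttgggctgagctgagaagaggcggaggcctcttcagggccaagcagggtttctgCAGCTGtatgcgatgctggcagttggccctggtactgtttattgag
Acta1: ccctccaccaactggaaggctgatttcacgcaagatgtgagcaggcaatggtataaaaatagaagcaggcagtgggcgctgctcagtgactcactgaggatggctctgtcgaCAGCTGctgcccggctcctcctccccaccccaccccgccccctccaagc

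The thick filament stretches lie upstream of Myl3, in an intron of the neighbouring gene Pth1r (chr9:110732696-110732856), and in an intron near the start of Myh3 (chr11:67081396-67081556):
Myl3: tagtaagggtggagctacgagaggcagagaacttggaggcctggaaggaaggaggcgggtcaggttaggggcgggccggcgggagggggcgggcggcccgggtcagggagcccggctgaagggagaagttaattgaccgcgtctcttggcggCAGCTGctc
Myh3: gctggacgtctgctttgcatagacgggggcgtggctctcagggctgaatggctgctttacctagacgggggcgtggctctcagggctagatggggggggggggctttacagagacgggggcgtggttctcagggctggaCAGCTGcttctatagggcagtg

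Those of the Z-disc lie in an intron of Actn3 (chr19:4876346-4876506) and upstream of Xirp1, in an intron of the overlapping gene Cx3cr1 (chr9:120024346-120024506). Those of the M-band lie in introns of Myom2 (chr8:15072896-15073056) and Myom1 (chr17:71038846-71039006). The last stretch, in an intron of Smyd1 (chr6:71251096-71251256), belongs to a region found in every +dox library and in no library without dox:
Actn3: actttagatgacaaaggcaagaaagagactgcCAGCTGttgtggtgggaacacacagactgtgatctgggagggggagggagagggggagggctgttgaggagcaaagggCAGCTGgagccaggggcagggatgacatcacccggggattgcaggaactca
Xirp1: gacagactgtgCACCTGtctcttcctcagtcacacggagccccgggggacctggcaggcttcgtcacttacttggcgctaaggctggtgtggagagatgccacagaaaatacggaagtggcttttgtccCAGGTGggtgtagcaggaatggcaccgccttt
Myom2: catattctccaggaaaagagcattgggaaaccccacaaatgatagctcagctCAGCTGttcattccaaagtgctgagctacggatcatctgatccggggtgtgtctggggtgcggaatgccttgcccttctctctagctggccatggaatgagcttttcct
Myom1: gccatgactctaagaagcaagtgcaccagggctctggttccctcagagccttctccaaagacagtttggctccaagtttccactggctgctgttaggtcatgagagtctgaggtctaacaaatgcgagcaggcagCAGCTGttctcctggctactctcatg
Smyd1: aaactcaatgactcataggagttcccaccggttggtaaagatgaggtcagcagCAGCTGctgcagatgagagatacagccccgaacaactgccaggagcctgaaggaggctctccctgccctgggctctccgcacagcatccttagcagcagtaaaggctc

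In Tpm2 a CAGCTG began 2 bp from the highest point, and another copy lay elsewhere in the same stretch. Tnni1 and Actn3 also held 2 copies of CAGCTG, and Acta1, Myl3, Myh3, Myom2, Myom1 and Smyd1 held 1 copy. The Xirp1 stretch held no CAGCTG but 1 CACCTG and 1 CAGGTG, which are the same E-box read on opposite strands.

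In the no dox libraries 21, 22 and 27 of the 52 genes had a peak, and in the +dox libraries 24, 27 and 45 had one. As shares these were 40.4%, 42.3% and 51.9% without dox against 46.2%, 51.9% and 86.5% with dox. The groups overlapped: +dox replicates 1 and 2 lay within the no dox range, its upper end included, and +dox replicate 3 far above it. The mean share was 44.9% ± 6.18 for no dox against 61.5% ± 21.8 for +dox (SD over 3 libraries each), a difference smaller than the spread between +dox libraries. With +dox replicate 3 left out the difference fell from 16.7 to 4.17 percentage points.

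Read against all protein-coding genes, the share of sarcomere genes with a peak was not uniformly higher. Of the protein-coding genes 35.7%, 45.3% and 37.2% had a peak in the same window in no dox replicates 1, 2 and 3, and 46.1%, 45.2% and 69.1% in +dox replicates 1, 2 and 3. The sarcomere share was thus below that of all genes in no dox replicate 2, level with it in +dox replicate 1 and above it in the other 4 libraries. Sarcomere gene bodies were longer, with a median of 23967.5 bp against 17425 bp, and the part of gene length in these shares was not tested. The member peaks made up 0.330%, 0.259% and 0.343% of the no dox lists and 0.303%, 0.370% and 0.330% of the +dox lists, and the share in the long list of +dox replicate 3 lay within the range of the others.

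**Figure D1:**
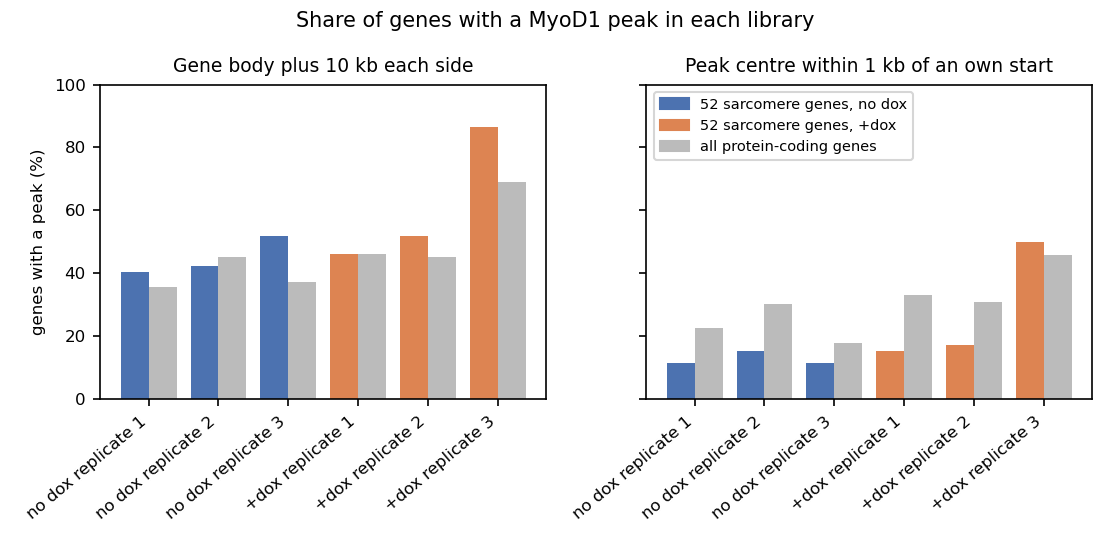
Share of genes with a MyoD1 peak (%, y axis) in each of the 6 libraries (x axis), for the 52 sarcomere genes (blue, no dox; orange, +dox) and for all 21938 protein-coding genes (grey). In the window of gene body plus 10 kb (left) the sarcomere bar reaches 86.5% in +dox replicate 3; at the gene's own starts (right) it lies below the grey bar in every library but that one.

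Peaks at the genes' own starts showed a different picture. A peak whose centre lay within 1 kb of an annotated start of the same gene was found at 6, 8 and 6 sarcomere genes without dox and at 8, 9 and 26 with dox. These shares of 11.5%, 15.4% and 11.5% and of 15.4%, 17.3% and 50% stood against 22.6%, 30.2% and 17.9% of all protein-coding genes in the no dox libraries and 33%, 30.8% and 45.9% in the +dox libraries. In 5 of 6 libraries sarcomere genes thus had a peak at their own start less often than protein-coding genes did, and in +dox replicate 3 slightly more often. Of the 26 genes with such a peak in that library, 14 had none in any other. Only Tpm1, Tpm2, Tnnt1 and Actn3 had a peak at their own start in all 6 libraries. Starts here were those of the GENCODE M21 basic transcript set, which leaves out the 5′ ends of some of the genes, among them Tnni1, Myom1 and Myl3. Regions called in all 6 libraries at the 5′ ends of Tnni1 and Myom1, described below, were therefore not counted. The share was not recomputed with another set of starts.

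Among the peaks themselves, promoter peaks, those with their centre within 1 kb of a start of any gene, made up 41.9%, 41.7% and 34.8% at sarcomere genes without dox and 47.4%, 42.9% and 26.6% with dox. Over whole lists the shares were 52.8%, 48.2% and 30.7% without dox and 58.9%, 51.3% and 22.1% with dox. In replicates 1 and 2 of both groups peaks at sarcomere genes were thus distal more often than peaks elsewhere, and in replicates 3 of both groups less often. The group means at sarcomere genes, 39.5% ± 4.05 and 38.9% ± 11.0 (SD, n = 3 each), differed by less than the spread between replicates.

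Peaks at sarcomere genes were not placed alike in the ranking of the libraries. The median percentile was 64.6, 64.3 and 51.6 without dox and 45.3, 50.8 and 54.0 with dox, where the median of a whole list is 50 by construction. The groups overlapped, since no dox replicate 3 lay below +dox replicate 3, and the mean of the +dox medians differed from that of the no dox medians by -10.2 points (SDs of 7.43 without and 4.40 with dox over 3 libraries each). Split by position, promoter peaks at sarcomere genes had medians of 64.6, 74.2 and 58.3 without dox and 53.9, 50.8 and 60.2 with dox. Distal peaks had medians of 55.5, 64.3 and 43.2 without dox and 40.6, 48.9 and 54.0 with dox. At sarcomere genes the promoter peaks were the higher ones in each library, whereas over whole lists promoter peaks had the lower median in no dox replicate 1 and +dox replicate 2 (48.5 against 53.3, and 46.9 against 50.8).

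The lower medians with dox did not hold under every reading. Ranked by total signal instead of maximum signal, the difference shrank to -0.741 points, and among the peaks above the middle of each list it turned to 7.57 points. Within pairs of the same replicate number it was -19.4, -13.5 and 2.34 points for replicates 1, 2 and 3.

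Merged over the 6 lists, the peaks at sarcomere genes formed 188 regions of 58309 in the genome. Of these, 113 were called in +dox replicate 3 alone, against 59.2% of all regions, a like share, and their highest points held a median of 12 alignments (4 to 86). At the other end 19 regions were called in all 6 libraries, against 8.3% of all regions, and these held a median of 100 alignments in +dox replicate 3. Most regions, 137, were distal, while 31 lay at an own start and 20 at a start of another gene. Their highest points fell in introns in 108 cases, between genes in 34, in coding exons in 27, in UTRs in 15 and in non-coding exons in 4. No region called in all 6 libraries had its highest point in a coding exon.

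**Figure D2:**
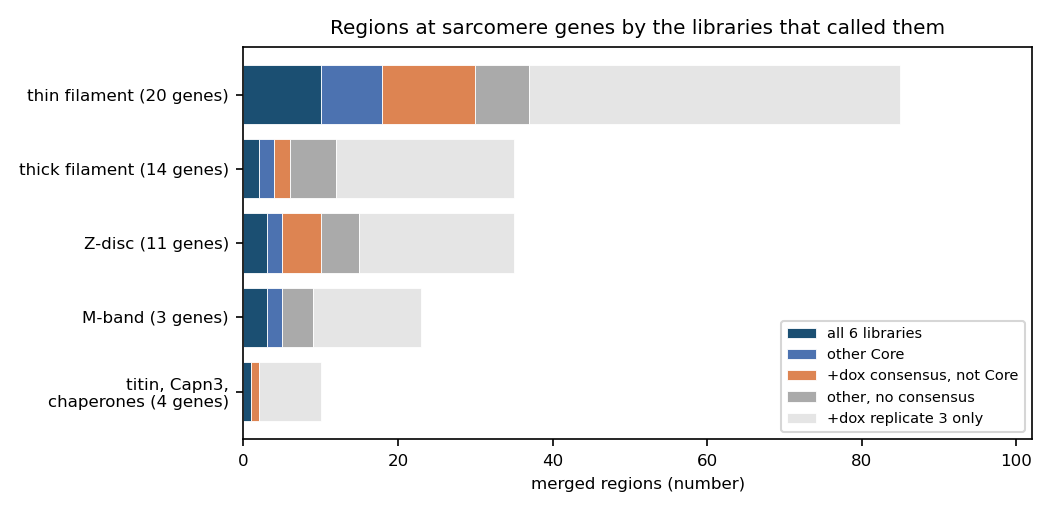
Number of merged regions (x axis) at the genes of each structural class (y axis), divided by the libraries that called them: all 6, other regions found in at least 2 no dox libraries (Core), +dox consensus regions outside Core, regions without a consensus in either group, and regions of +dox replicate 3 alone. Thin filament genes held 85 of the 188 regions and 10 of the 19 called in all 6 libraries, and the palest segment, +dox replicate 3 alone, is the longest in every class.

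Thin filament genes were the largest class. All 20 had a region, 11 had a region found in at least 2 of 3 no dox libraries, called Core regions here, and 17 had one found in at least 2 of 3 +dox libraries. Per library 12, 12 and 13 of the 20 were bound without dox and 14, 15 and 20 with dox. Of the 14 thick filament genes 4, 5 and 7 were bound without dox and 4, 4 and 11 with dox, and 4 had a Core region. Of the 11 Z-disc genes 2, 2 and 4 were bound without dox and 3, 5 and 8 with dox, and 2 of them, Actn3 and Xirp1, had a Core region. Myom1 and Myom2 were bound in every library and Myom3 in +dox replicate 3 alone, and of the last group Smyd1 alone was bound in every library. The classes are small, and no test was made between them.

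**Figure D3:**
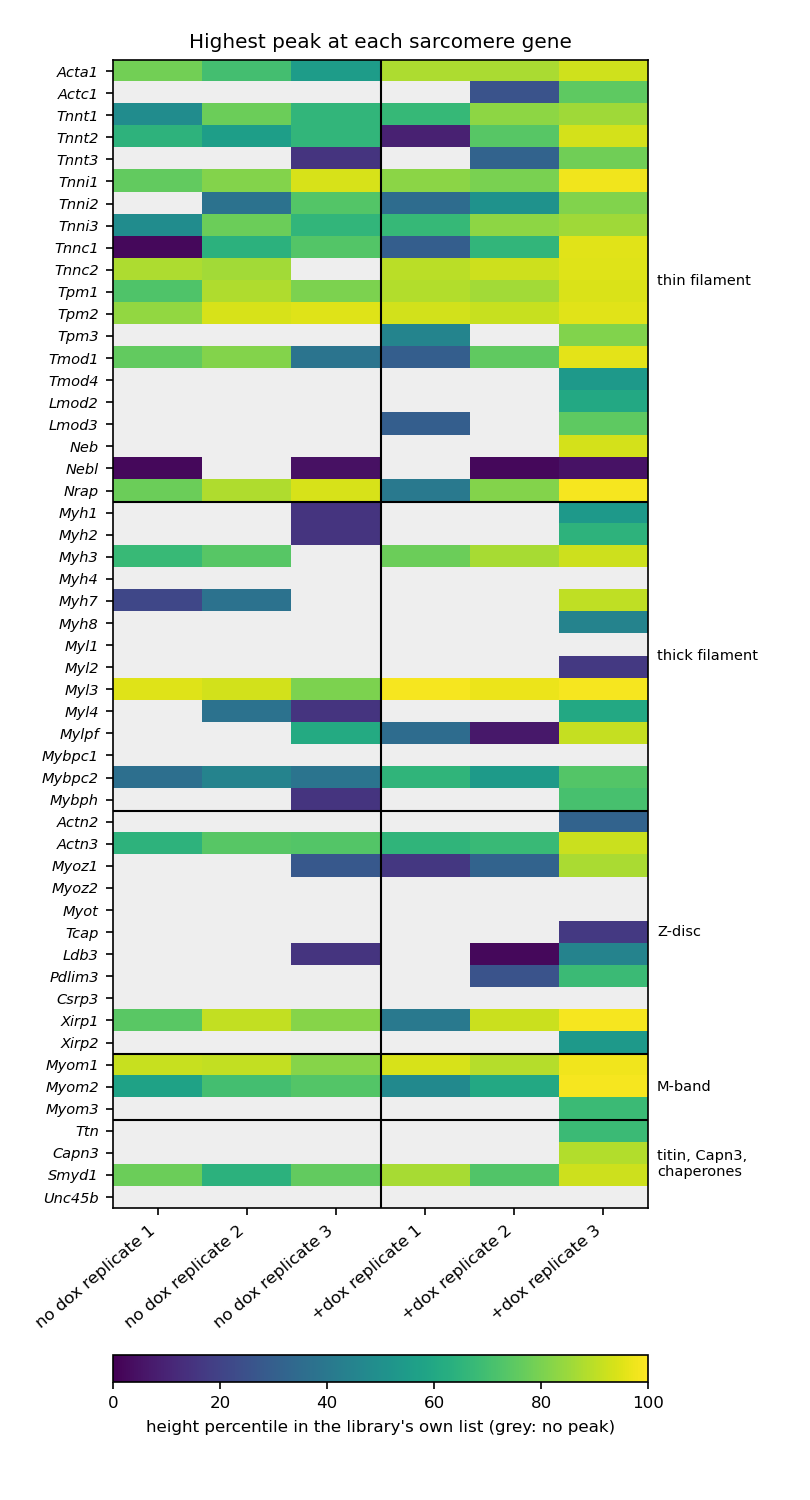
Height percentile of the highest peak at each of the 52 genes (rows, grouped by structural class) in each library (columns); yellow is the top of a library's list, dark blue the bottom, and grey means no peak. Filled rows run through all 6 columns for 17 genes, 11 genes are filled in +dox replicate 3 alone, and 7 are grey throughout.

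Over the 52 genes, 20 had a Core region, as did 35.5% of protein-coding genes, and 29 had a +dox consensus region, as did 48.4%. Expanded regions, those found in at least 2 +dox libraries with no overlap of a Core region, lay at 18 of the genes, against 25.6% of protein-coding genes. Of 52 +dox consensus regions at sarcomere genes 20 were Expanded, and 38.5% of all +dox consensus regions were. The Expanded count was 14 without +dox replicate 1, 10 without +dox replicate 2 and 6 without +dox replicate 3. In each case both remaining +dox libraries had to call a region, a stricter rule than 2 of 3. With each list shortened to its 9389 highest peaks, the length of the shortest list, the count was 4. Of the 33 Core regions 1 overlapped no +dox consensus region, against 10% of all Core regions. It lay 2800 bp upstream of Myh7, which encodes slow myosin heavy chain, and +dox replicate 3 had a peak there as well, at percentile 90.5.

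Of the thin filament genes, Tpm2, which encodes beta-tropomyosin, had the region with the highest mean percentile (chr4:43521051-43524850), spanning its start. Its percentiles were 84.0, 93.9 and 95.0 without dox and 93.3, 91.6 and 95.5 with dox, which is 54, 97 and 70 alignments against 128, 107 and 115. This region thus stood high in all 6 lists, with the groups overlapping. At Tnni1, slow skeletal troponin I, a region 8258 bp upstream of the gene's 5′ end (chr1:135770351-135772750) had percentiles of 76.0, 81.5 and 94.0 without dox and 76.3, 79.8 and 97.8 with dox. Its highest point lay nearer to a start of Phlda3, 5057 bp away, so the gene it belongs to cannot be told from these lists. A second region lay 358 bp upstream of the Tnni1 5′ end (chr1:135778501-135779900), at 64.6, 67.4 and 73.4 without dox and 82.6, 77.7 and 92.7 with dox, where every +dox library lay above every no dox library. The nearest start of Tnni1 in the transcript set used for promoters was 20326 bp away, so this region counted as distal.

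Tpm1, alpha-tropomyosin, was bound inside the gene, at the start of a shorter transcript 5530 bp from its 5′ end (chr9:67043051-67044400), with percentiles of 72.4, 88.2 and 55.3 without dox and 88.5, 86.2 and 94.5 with dox. Acta1, skeletal alpha-actin, had its constant region 9775 bp downstream of its start and beyond its end (chr8:123883901-123885600), at 78.9, 69.9 and 55.3 without dox and 87.6, 87.4 and 92.7 with dox, again with no overlap between groups. Nrap, a nebulin-related protein of growing myofibrils, was bound in an intron (chr19:56373801-56374650) at 77.5, 88.2 and 93.9 without dox and 35.5, 81.4 and 98.5 with dox. Here the +dox libraries held both the lowest and the highest value of the 6. Tnnt1, slow troponin T, was bound at an own start (chr7:4512751-4515500) at 48.5, 77.7 and 66.0 without dox and 67.2, 83.0 and 85.6 with dox. The Tnnt1 window overlaps that of Tnni3, the cardiac troponin I gene, so this region was counted once for both genes.

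Among the thick filament genes, Myl3, the slow and ventricular essential light chain, had the highest mean percentile at any sarcomere gene (chr9:110732001-110733350), 9085 bp upstream of its 5′ end. Its height was 112, 88 and 30 alignments without dox and 298, 200 and 234 with dox. Its percentiles were 95.2, 93.0 and 80.3 without dox and 98.5, 97.1 and 98.5 with dox, so that all +dox libraries lay above all no dox libraries. The nearest start of Myl3 in the transcript set used for promoters was 30870 bp away. Because the region lies in a Pth1r intron, proximity alone ties it to Myl3. Myh3, embryonic myosin heavy chain, was bound in an intron 3176 bp from its start (chr11:67080851-67081900) at 67.5 and 74.2 in no dox replicates 1 and 2, was not called in no dox replicate 3, and stood at 77.7, 87.0 and 92.5 with dox. At Mybpc2, fast myosin binding protein C, the region called in all 6 libraries lay outside the gene, 28130 bp from its 5′ end, at the start of its neighbour Emc10 (chr7:44496051-44497200) and had percentiles of 36.6, 44.9 and 38.6 without dox and 65.3, 54.4 and 73.2 with dox.

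The other skeletal myosin heavy chain genes had few peaks. At Myh7, the slow chain, the Core region named above held 14 and 16 alignments in no dox replicates 1 and 2, at percentiles 21.4 and 37.5, and 64 in +dox replicate 3. Around Myh2 and Myh1, the neighbouring genes of the fast IIa and IIx chains, +dox replicate 3 had peaks of 18 alignments 5876 bp upstream of Myh2, of 14 alignments 401 bp upstream of Myh1 and of 6 alignments in a coding exon of Myh1. In the same interval no dox replicate 3 had 1 peak, in a coding exon of Myh2, with 8 alignments. Myh8, the perinatal chain, had 1 peak of 12 alignments beyond its 3′ end, in +dox replicate 3, and Myh4, the fast IIb chain, had none in any library. These 4 genes lie in a row with Myh3 on chromosome 11, and Myh3 was the only one of the 5 with a Core region.

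At the Z-disc, Xirp1, which encodes the actin-binding Xin repeat protein, was bound 828 bp upstream of its start (chr9:120023301-120025250) at 74.2, 90.9 and 82.0 without dox and 40.6, 92.0 and 98.6 with dox. Actn3, the fast-fibre alpha-actinin, had adjoining regions at its start (chr19:4877351-4879550) and in an intron 1483 bp into the gene (chr19:4875851-4877200), both in all 6 libraries. The former had percentiles of 64.6, 74.2 and 73.4 without dox and 58.4, 65.7 and 92.0 with dox, and its highest point was 146 bp from the start of the neighbour Zdhhc24. The latter had 21.4, 69.9 and 66.0 without dox and 65.3, 67.7 and 90.1 with dox. Both overlapped between groups. Actn2, the other alpha-actinin of muscle, had a single peak of 10 alignments 66 bp upstream of its start, in +dox replicate 3.

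Myom1, myomesin 1, had the most regions of any of the genes, with 17, followed by Tmod1, which caps thin filament ends, with 12, and by Myoz1, Tnnt2 and Xirp1 with 8 each. Many of these rest on +dox replicate 3 alone, and without such regions Myom1 had 8, Tmod1 and Xirp1 4 each, Myoz1 3 and Tnnt2 2. By mean percentile the highest region at Myom1 lay at its 5′ end (chr17:71001501-71003650), at 91.8, 90.9 and 82.0 without dox and 94.0, 88.9 and 96.3 with dox. Its highest point was 43 bp inside Myom1 but also 122 bp from the start of Myl12a, a regulatory light chain gene of non-muscle myosin, so the gene it belongs to cannot be told from these lists. The nearest Myom1 start in the transcript set used for promoters was 16845 bp away, so this region counted as a start of another gene. Myom2 was bound in an intron 15323 bp into the gene (chr8:15072251-15073300), with 26, 30 and 24 alignments without dox and 23, 32 and 264 with dox. These counts are not scaled to depth, and the 264 came from +dox replicate 3, the deepest library. In CPM the log2 change with dox was 1.16, and 0.51 with +dox replicate 3 left out. At Smyd1, a methyltransferase needed for thick filament assembly, the region called in all 6 libraries lay 101 bp from the start of Krcc1 (chr6:71271251-71272850), at 77.5, 64.3 and 76.1 without dox and 86.8, 72.7 and 81.1 with dox.

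The genes of the giant proteins titin and nebulin had peaks in +dox replicate 3 alone. Ttn, whose gene spans 278568 bp, had 1 peak, 279 bp upstream of its start, with 20 alignments at percentile 68.0 in +dox replicate 3. Neb, nebulin, with 241828 bp, had 3 peaks in the same library alone, the highest with 86 alignments in an intron, which is the highest of the 113 regions found in that library alone. Capn3, the muscle calpain that binds titin, also had 3 peaks there and none elsewhere. A set of 7 genes had no peak in any library, where the lowest peak of a list held 4 alignments, or 6 in +dox replicate 2. They were Myh4, Myl1 (fast essential light chains), Mybpc1 (slow myosin binding protein C), Myoz2 and Myot (Z-disc proteins that bind alpha-actinin), Csrp3 (muscle LIM protein) and Unc45b. At these depths binding there was not detectable, which is not to say absent.

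Regions called in every +dox library and in no library without dox are the plainest case of sites found with dox alone. They made up 3 of the 188 regions, against 1.09% of all regions, and the reverse pattern occurred at 0 of the 188, against 0.00858%. The clearest lay in an intron of Smyd1 (chr6:71250851-71251500), 11056 bp from the nearest Smyd1 start, with 20, 28 and 78 alignments and percentiles of 40.6, 54.4 and 92.5. The second, at the 5′ end of Tmod1 (chr4:46038751-46041900), had 12 alignments in each +dox library and percentiles of 16.0, 12.5 and 44.8. The third, 4636 bp upstream of Myoz1, a calcineurin-binding Z-disc protein, lay in a coding exon of its neighbour Synpo2l (chr14:20660401-20661800), with 12, 10 and 10 alignments and percentiles of 16.0, 6.47 and 31.8. The count depends on the libraries asked for: it was 5 without no dox replicate 3, 11 without +dox replicate 1, 6 without +dox replicate 2, and 1 with each list shortened to its 9389 highest peaks.

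Other Expanded regions lay at own starts of Mylpf (fast regulatory light chain), Tnnt3 (fast troponin T), Tnni2 (fast troponin I), Pdlim3 (a Z-disc LIM protein), Nebl (a small relative of nebulin) and Tpm3 (the slow-fibre tropomyosin). The one at Mylpf was called in 3 of 3 +dox libraries, at 35.5, 6.47 and 91.4, and in 1 without dox. At Tnnt3 it was called in +dox replicates 2 and 3, at 31.9 and 78.5, and in no library without dox. At Actc1, cardiac alpha-actin, an Expanded region lay 4128 bp upstream of its start, at 25.7 and 75.3 in the same 2 libraries. Thin filament genes held 11 of the 18 genes with an Expanded region and M-band genes none.

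The 19 regions called in all 6 libraries permit the heights to be compared directly. Their median percentile was 64.6, 69.9 and 73.4 without dox and 65.3, 77.7 and 94.5 with dox. Over all 4838 regions called in all 6 libraries the medians were 70.2, 80.4 and 76.1 without dox and 75.8, 78.8 and 93.5 with dox, so the regions at sarcomere genes were somewhat below these in 5 libraries and above in +dox replicate 3. For 4 of the 19, at Tnni1, Mybpc2, Acta1 and Myl3, every +dox percentile lay above every no dox percentile, against 23.7% of all such regions. The percentiles of +dox replicate 3 also reflect the length of its list, so this pattern is not by itself a gain in binding. In CPM every +dox library lay above every no dox library at 8 of the 19, against 27.5% of all such regions. CPM in turn carries any difference in scale between libraries.

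**Figure D4:**
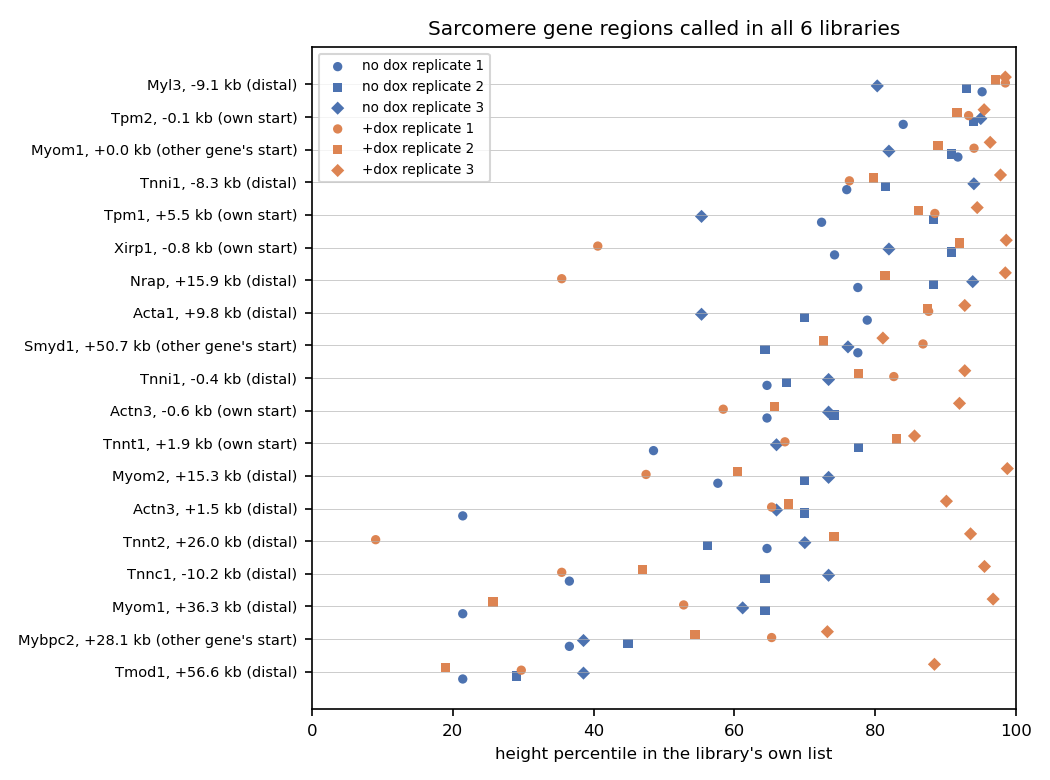
Height percentile (x axis) in each library of the 19 regions at sarcomere genes called in all 6 libraries, ordered by their mean; labels give the distance of the highest point from the gene's 5′ end (negative, upstream) and whether the region lies at a start. Blue marks are no dox and orange marks +dox, with the shape for the replicate. Myl3, Tpm2 and the Myom1 region at its 5′ end have the highest means, though not the highest mark in every library. The highest mark is +dox replicate 3 (orange diamond) in 17 of 19 rows, against 85.9% of all regions called in all 6 libraries, a like share.

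Maximum signal in CPM was compared over the 4838 regions with limma on log2(CPM), with no pseudocount. All 19 regions at sarcomere genes had a higher mean with dox, with changes from 0.25 at Nrap to 1.89 at Myl3 and a median of 0.91 on the log2 scale. The median over all 4838 regions was also 0.91, and 96.1% of them were higher, so the sarcomere regions stood where the rest of the genome did. CPM values have no spike-in, and a shift of this kind cannot be told apart from a difference in scale between libraries. No region passed an adjusted p of 0.05 in limma, 0 of 19 against 0% of all. At an unadjusted p under 0.05 there were 5 of the 19 and 1158 of 4838, all higher with dox.

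Those 5 were, in log2 change ± SE, Myl3 (1.89 ± 0.64), Acta1 (1.61 ± 0.60), Tpm1 (1.45 ± 0.61), the Tnni1 region next to its 5′ end (1.30 ± 0.56) and the intronic Actn3 region (1.15 ± 0.55). Each had a limma adjusted p of 0.208. Myl3 rose from 26.1, 19.9 and 6.43 CPM without dox to 104, 55.6 and 29.1 CPM with dox, with no overlap between groups. Acta1 stood at 10.2, 6.77 and 3.43 CPM without dox and 30.0, 22.8 and 9.96 CPM with dox, where +dox replicate 3 fell below no dox replicate 1.

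With replicates of the same number treated as pairs (a block), which compares each +dox library with the no dox library of the same number, limma called 9 of the 19 regions higher, against 52% of all regions. These were the 5 described with the 2 Myom1 regions and those at Myom2 and Xirp1, where the log2 changes were 1.06 at the 5′ end of Myom1, 1.10 in its intron, 1.16 at Myom2 and 0.90 at Xirp1. Myl3 then had an adjusted p of 5.37e-06 and Acta1 one of 0.000652. Without the block, 8 of 19 were called higher when +dox replicate 3 was left out, against 39.4% of all regions, and likewise 8 on replicates 1 and 2 alone, against 35.3%. Once each library was centred on its median in the blocked fit, 0 of 19 were called higher, against 0%, and the median of the 19 was -0.01. In the unblocked fits with median centring or quantile normalization no region of the 19 was called either.

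**Figure D5:**
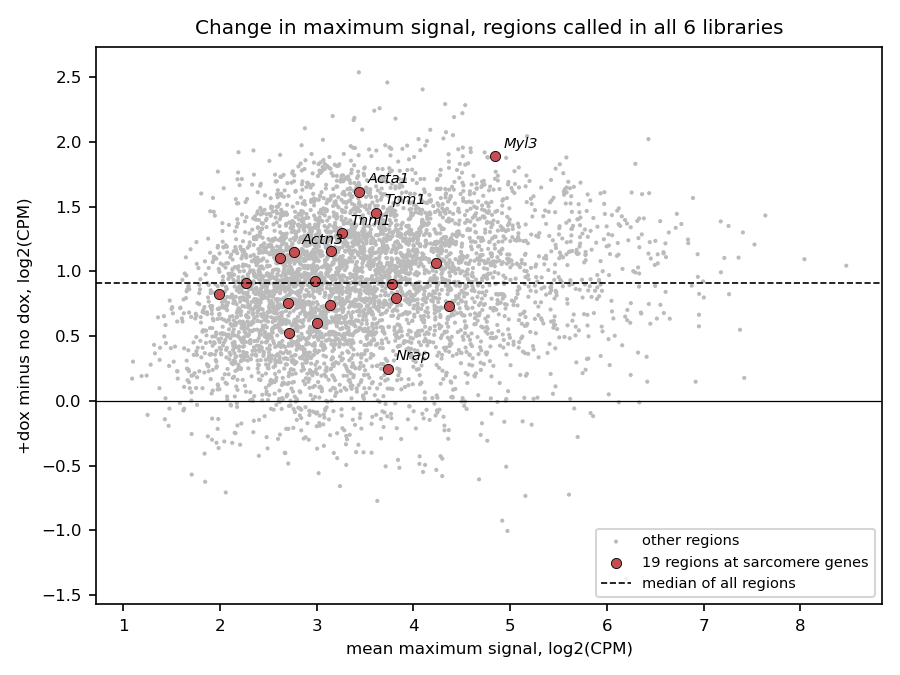
Difference in mean log2(CPM) of maximum signal between +dox and no dox (y axis) against the mean over 6 libraries (x axis) for the 4838 regions called in all 6 libraries (grey) and the 19 at sarcomere genes (red). The dashed line is the median of all regions, 0.91; the red points lie on both sides of it, from Nrap at 0.25 to Myl3 at 1.89.

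The preferred E-box was common in peaks at sarcomere genes. Within a peak extended by 100 bp on each side CAGCTG was present in 83.9%, 75.0% and 76.1% of them without dox and in 71.1%, 67.3% and 71.2% with dox. The groups did not overlap (means of 78.3% ± 4.84 and 69.9% ± 2.18, SD, n = 3 each), and neither did they over whole lists, with 67.8%, 67.0% and 73.4% without dox and 57.8%, 64.3% and 63.8% with dox. In each library the share at sarcomere genes was thus above that of its whole list. The longer a peak the more often it holds any given letters. Within 100 bp of the highest point the shares overlapped between groups, at 58.1%, 50% and 32.6% without dox and 47.4%, 46.9% and 42.4% with dox. Over whole lists they were lower in each library, at 38.9%, 34.4% and 31.6% without dox and 34.1%, 37.7% and 31.3% with dox.

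By region, CAGCTG lay in 87.9% of the 33 Core regions at sarcomere genes and in 76.4% of all Core regions. It lay in 60% of the 20 Expanded regions and in 62.7% of all Expanded regions. At the highest point ± 100 bp of the 19 regions called in all 6 libraries CAGCTG was found in 12, against 48.4% of all such regions, and any CANNTG in 17, against 77.3%. The E-box CAGGTG or CACCTG was found in 4 of the 19, against 19.1%. TGANTCA, the site of AP-1 factors, was found in 4, against 14.3%. All words were read on both strands, and CANNTG includes the other E-boxes. The highest point of a merged region was again that of the library with its highest percentile, mostly +dox replicate 3.

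The promoters of the genes had their own letters. RefSeq promoter sequences, 250 bases before to 50 after a start on GRCm38.p6, were at hand for 42 of the 52 genes, with 53 starts. CAGCTG lay in 19 of the 53 (35.8%), against 16.3% of 32851 promoters of all genes. The MEF2 site, bound by the MEF2 partners of MyoD1, lay in 8 of the 53 (15.1%), against 1.86%, and the CArG box, bound by serum response factor, also in 8, against 1.63%. TATAAA lay in 12 of the 53 (22.6%), against 13.6%. At the highest points of the 188 regions the MEF2 site was found in 7 (3.72%), against 0.741% of all regions, and in 0 of the 19 called in all 6 libraries, against 0.785% of all such regions, and nothing is read from that 0.

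A promoter with such letters was not always one with a peak. Of the 7 genes without a peak, Myh4, Myl1, Mybpc1 and Myoz2 held CAGCTG in their RefSeq promoter. The 250 bases before the RefSeq start of Myh4 (chr11:67237562-67237811, plus strand, GRCm38.p6) are shown because this promoter held CAGCTG, a MEF2 site, a CArG box and TATAAA together, with CAGCTG in capitals beginning 67 bp before the start, while no library had a peak within 10 kb of the gene:
Myh4: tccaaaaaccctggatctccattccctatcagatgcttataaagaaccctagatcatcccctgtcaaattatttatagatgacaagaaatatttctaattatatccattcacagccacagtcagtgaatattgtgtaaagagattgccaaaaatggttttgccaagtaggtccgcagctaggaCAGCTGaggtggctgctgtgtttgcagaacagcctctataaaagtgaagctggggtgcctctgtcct

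Lists of genes near these in function are given beside them. Of 24 other sarcomere genes 13, 20 and 13 were bound without dox and 16, 18 and 23 with dox, and 13 of them had a Core region. Of 20 genes of excitation-contraction coupling, the link from membrane depolarisation to calcium release, 13, 17 and 14 were bound without dox and 17, 17 and 19 with dox, and 13 had a Core region. In each library both shares were above that of the 52 sarcomere genes. No test was made of these differences.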

How the data were processed

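MyoD1 CUT and RUN was analysed in 3 no dox and 3 +dox libraries of 1 engineered C2C12 line. Per the methods, the authors ran nf-core/cutandrun 3.2.2 on mm10 with CPM scaling, a blacklist and SEACR in relaxed mode, and the submitters' processing notes also name deepTools. The deposited lists give total and maximum signal per peak, as coverage in CPM. Whether a control library was used is not given in the sources used here.

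Peak ends lay within GRCm38. Genes and starts came from GENCODE M21, with starts of its basic transcript set. Depth was recovered from the step of the heights. Regions called in all 6 libraries were tested with limma 3.58.1 (trend, two-sided, Benjamini-Hochberg) in R 4.3.3. The unblocked fit was checked on simulated data with independent replicates and no difference in scale between libraries. That check does not bear on scale differences or pairing in the real libraries. Other steps used Python 3.11.15, NumPy 2.4.6 and pandas 2.3.3. Replicates are labelled biological. The labels do not state that libraries of the same number belong together. Same-numbered libraries deviated together (correlations of 0.485, 0.267 and 0.628), so the block was treated as a pairing. Correlations between unlike numbers are not given here, so the pairing is an assumption. Named regions were the 3 highest genes of each class, regions of every +dox and no untreated library, the smallest limma p-values, the genes with no peak and the 5 with most regions. Expanded regions named beyond these, the regions of Nrap and Tnnt1, those of the large genes and the sequence stretches shown were chosen after their values were seen. The members and lists were chosen with earlier results of these data known.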

Additional observations from a re-analysis of the deposited data

How the results depend on the processing

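Of 120 values of the comparisons recomputed under alternatives 92 kept and 28 did not. Kept means within the spread between replicates, within 1.5 times for region counts, or an unchanged number for limma calls. The replicate-block values other than limma calls are among the 92 by construction. For bound share the spread was 16.1 points, so a fall from 16.7 to 4.17 without +dox replicate 3 counted as kept. The 92 is therefore not a measure of stability. Leaving out 1 library at a time moved the +dox minus no dox difference in bound share between 4.17 and 24.4 percentage points, in percent of the list between -0.00252 and 0.0394, in promoter share between -4.76 and 5.65, in median percentile between -14.5 and -7.79 and in CAGCTG share between -10.1 and -5.68. It moved Core regions between 22 and 33, Expanded regions between 6 and 30, regions of all +dox and no no dox libraries between 3 and 11, and limma calls among the 19 regions between 0 and 8. With 1 library of a group left out, a consensus asked for both that remained, which is a stricter rule. On replicates 1 and 2 alone the percentile difference was -16.4, Expanded regions were 9, regions of +dox alone 5 and limma calls 8. With lists of equal length the CAGCTG difference was -2.47, with 4 Expanded regions and 1 region of +dox alone. Among peaks above the middle of each list the percent of the list differed by -0.0297 and the percentile by 7.57, with 5 Expanded regions and 1 of +dox alone. The percentile difference was -0.741 by total signal and -3.43 as a mean, and the CAGCTG difference -1.33 near the highest point. With 1 kb on each side Core regions were 18 and Expanded 12, and with 50 kb 82, 51 and 10 of +dox alone. With 3 of 3 libraries Core regions were 21 and Expanded 12. Those changes follow from the windows and rules, and for the others the cause was not tested.

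The replicate block raised limma calls to 9 and by construction left the other differences as they were, with 16.7 points in bound share. Added after seeing the data, the block with median centring called 0, and starts of the comprehensive transcript set put the promoter difference at 1.07 points. Of all 19 regions, 9 were higher in +dox after median centring, with or without the block, and 11 after quantile normalization, so that 10 and 8 turned from higher to lower. Among the 10 whose change is printed, direction turned at Nrap, which ran from -0.25 without +dox replicate 3 to 0.85 without +dox replicate 1 and was -0.19 on replicates 1 and 2, -0.68 median-centred with or without the block and -0.68 by quantile normalization, and at Xirp1, to -0.026 median-centred with or without the block and -0.0207 by quantile normalization. Lists of few member peaks, from 31 in no dox replicate 1, limit every share.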
